A study of Equus caballus with 40 samples.

Results

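Autologous conditioned serum (ACS) was compared with a serum preparation labelled AES24h in equine chondrocyte pellets harvested after 48 h of treatment. The comparison was chosen by sample title and uses 8 of the 40 arrays of the series, 4 with ACS and 4 with AES24h, and every probe set on them. Chondrocytes isolated from horse cartilage were kept in 3D pellet culture, where they surround themselves with newly made matrix. In both groups the pellets first had 48 h of stimulation with recombinant equine IL-1β (interleukin-1β) at 5 ng/ml, and both then received IL-1β together with serum, so that by their labels ACS and AES24h pellets differ in the serum and not in the cytokine. Other 48 h pellets received IL-1β plus AES, which is autologous equine serum, IL-1β alone, or neither IL-1β nor serum (control), and the same 5 treatments were also harvested after 2 h. Each of the 10 groups held 4 arrays, and per the labels' protocols RNA came from 1 pellet of a group. The labels neither explain AES24h nor give a serum dose, and they do not say whether replicates came from separate horses or cultures. The p-values therefore rest on a spread between samples that may be no more than technical.

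Chondrocytes are the only resident cells of articular cartilage and make its type II collagen, aggrecan and small proteoglycans. IL-1β, a cytokine of inflamed joints, signals through the receptor IL1R1 and NF-kB to switch on chemokines, collagenases and aggrecanases and to lower the output of matrix. ACS is serum from blood that was incubated before the serum was taken off. It is injected into horse joints, and the best known of its proteins is the IL-1 receptor antagonist, which occupies IL1R1 without signalling.

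Values are log2 expression, 1 per probe set and array, so a difference of 1 is a 2-fold difference on the linear scale. Of 30559 probe sets, 16789 carry 1 gene symbol and stand for 16661 genes. The 8 arrays had medians between 4.36 and 4.49, and the median of all values was 4.45, which serves below as the mark of a low level. Of 10 chondrocyte markers, 9 lay above that mark, with a mean level of 7.79 to 8.61 on ACS arrays and 7.74 to 8.61 on AES24h arrays. The exception was the matrilin MATN3, at 3.18 with ACS and 3.20 with AES24h. Over all probe sets an ACS array correlated with an AES24h array at 0.963 to 0.986. Pairs of ACS arrays correlated at 0.966 to 0.975, and pairs of AES24h arrays at 0.969 to 0.982. The arrays numbered replicate 1 stood somewhat apart in both groups: ACS replicate 1 correlated with the other ACS arrays at 0.966 to 0.974, AES24h replicate 1 with the other AES24h arrays at 0.969 to 0.975, and the 2 correlated with each other at 0.986.

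No gene passed the test between ACS and AES24h at 48 h. With limma and Benjamini-Hochberg adjustment across the whole array, 0 of 30559 probe sets (0%) had an adjusted p under 0.05, and the smallest adjusted p was 0.836. At an unadjusted p under 0.05 there were 756 probe sets, 2.47% of those tested, where 5% would fall if no probe set differed. These were 431 probe sets higher with ACS (1.41%) and 325 lower with ACS (1.06%). The 4 ACS values lay wholly above the 4 AES24h values for 259 probe sets (0.848%) and wholly below them for 246 (0.805%). Overlap, here and below, takes no account of a level that same-numbered arrays may share, so overlapping groups can still differ at each number. Without replicate 1 of both groups, again 0 probe sets passed, with 928 at an unadjusted p under 0.05.

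A test that is not passed does not show that the sera act alike, so the size of difference that the arrays still allow was read from 95% confidence intervals. Each interval rests on a spread pooled over all 10 groups. It can be too narrow for a gene that varies more in these 2 groups than elsewhere, and too wide for one that varies less. The interval of ACS minus AES24h reached a median of 0.39 to either side of the estimate (quartiles 0.32 and 0.51). It lay within 1 log2 unit of 0, that is within a 2-fold difference either way, for 27749 probe sets (90.8%) and for 16252 genes (97.6%). For 16 genes it reached past 2 log2 units. The median difference over all probe sets was 0.00, with quartiles of -0.11 and 0.11, and the median SD between replicates was 0.25 with ACS and 0.24 with AES24h.

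The means of 58 probe sets differed by at least 1 log2 unit, 31 higher and 27 lower with ACS. Only 3 of them carry a gene symbol, all higher with ACS, and these are named here for that size, after their values were seen. CXCL13, a chemokine that attracts B cells through the receptor CXCR5, read 5.79, 6.67, 9.64 and 9.38 with ACS, against 3.63, 5.57, 7.53 and 4.13 with AES24h. Its difference was 2.66 with an interval from 0.80 to 4.52, and the limma adjusted p was 1. That interval pools the spread of all 10 groups. At 48 h the SD of CXCL13 ran from 0.05 in control pellets to 2.77 with AES. The ACS and AES24h groups overlap, since 2 ACS arrays lie below the highest AES24h array. CXCL13 averaged 7.42 with AES, 4.28 with IL-1β alone and 3.25 in control pellets, and the SD between replicates was 1.93 with ACS and 1.75 with AES24h. Over 24 other settings of the fit the difference of CXCL13 ran from 1.79 to 3.43, with no adjusted p under 0.813.

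SFRP2, a secreted modulator of Wnt signalling, had 6.04, 9.51, 8.38 and 9.33 with ACS and 4.66, 8.33, 8.31 and 7.68 with AES24h. The third, LOC100630858, had 5.23, 6.79, 8.03 and 7.62 with ACS and 3.60, 6.13, 6.76 and 6.28 with AES24h. In both genes the groups overlap, and replicate 1 is the lowest array of each group. Without AES24h replicate 1 the difference was 0.21 for SFRP2, against 1.07 with it, and 0.53 for LOC100630858, against 1.23 with it. That leave-out takes the low array from AES24h alone. With replicate 1 out of both groups, SFRP2 keeps 9.51, 8.38 and 9.33 with ACS against 8.33, 8.31 and 7.68 with AES24h. LOC100630858 then keeps 6.79, 8.03 and 7.62 with ACS against 6.13, 6.76 and 6.28 with AES24h. Over all 24 other settings the difference ran from 0.21 to 1.83 for SFRP2 and from 0.53 to 1.79 for LOC100630858. The intervals of their differences include 0, from -1.15 to 3.29 for SFRP2 and from -0.42 to 2.87 for LOC100630858.

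Cartilage matrix genes did not pass the test in any of 32 measured members of 34 listed, and 13 of them had a positive difference, against 8430 of all 16661 genes. COL2A1, the chain of type II collagen, read 9.80, 9.49, 7.62 and 7.45 with ACS and 9.82, 9.41, 8.07 and 8.21 with AES24h. In both groups replicates 1 and 2 are the high arrays and replicates 3 and 4 the low ones, so the spread within a group is wider than the gap between groups. The COL2A1 difference was -0.29, with an interval from -1.26 to 0.69 that holds a difference of 2-fold in the direction of lower ACS. COL2A1 averaged 8.51 with AES, 9.06 with IL-1β alone and 11.6 in control pellets.

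ACAN, the core protein of aggrecan, had 8.78, 9.13, 8.13 and 8.08 with ACS and 9.26, 9.29, 8.53 and 7.87 with AES24h, a difference of -0.21 (interval -0.95 to 0.53). The highest 2 arrays are replicates 1 and 2 in both groups here too. SOX9, the transcription factor of chondrocyte identity, lay between 4.76 and 5.36 with ACS and between 5.03 and 5.19 with AES24h, with an interval of -0.38 to 0.32. Over the whole list the median difference was -0.02. Of 32 intervals 27 (84.4%) lay within 1 log2 unit of 0, a smaller share than the 97.6% of all genes. The members ran from -0.36 for CLEC3A, a cartilage lectin, to 0.19 for PRELP, a leucine-rich repeat proteoglycan.

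The list of 19 measured chondrogenic regulators also gave no gene past the test. All 19 intervals lay within 1 log2 unit, beside 97.6% of all genes. NFATC1, a calcium-regulated transcription factor, had 7.41 to 7.65 with ACS and 7.19 to 7.52 with AES24h. Among 25 fibroblastic and dedifferentiation genes the members kept close: COL3A1, the chain of type III collagen, had 12.64, 12.71, 12.75 and 12.69 with ACS and 12.81, 12.82, 12.84 and 12.85 with AES24h. All 4 ACS values of COL3A1 lie below all 4 AES24h values, by a difference of -0.13 (interval -0.34 to 0.08). COL1A1, type I collagen, averaged 10.7 ± 0.75 with ACS and 10.8 ± 0.53 with AES24h (SD, n = 4 each), with the lowest array of each group again replicate 1. Among 18 hypertrophy and mineralisation genes SPP1, or osteopontin, averaged 8.71 ± 0.50 with ACS and 8.07 ± 1.16 with AES24h (SD, n = 4 each), where AES24h replicate 3 at 6.44 is the low array.

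Matrix degrading enzymes gave no gene past the test among 31 measured members of 34 listed, of which 14 had a positive difference, and their median difference was 0.00. The median level of the list was 6.60, 6.58, 6.53 and 6.43 on the ACS arrays and 6.71, 6.96, 6.88 and 6.64 on the AES24h arrays. Each ACS array thus lay below each AES24h array, although the members' differences centred on 0.00. It is 1 of 32 lists, and this gap was not tested. The collagenase MMP13, which cleaves type II collagen, had 12.76, 11.91, 13.14 and 12.97 with ACS and 12.73, 12.32, 12.83 and 12.91 with AES24h. Both groups average 12.7, and the interval of the difference reaches from -1.05 to 1.05, which is about 2-fold either way. MMP13 averaged 12.02 with IL-1β alone and 7.33 in control pellets. MMP1, the interstitial collagenase, averaged 11.9 ± 0.79 with ACS and 12.03 ± 0.58 with AES24h (SD, n = 4 each). Replicate 2 is its lowest array in both groups. MMP3, or stromelysin-1, averaged 11.9 ± 0.30 with ACS and 11.9 ± 0.39 with AES24h (SD, n = 4 each).

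Of the aggrecanases, ADAMTS5 read 9.47, 9.75, 9.90 and 10.42 with ACS and 9.71, 10.41, 10.38 and 10.49 with AES24h. Its difference of -0.36 had an interval from -0.90 to 0.17, and the groups overlap. ADAMTS4 read 7.11, 5.45, 5.07 and 6.14 with ACS and 6.83, 5.02, 5.15 and 5.47 with AES24h, with replicate 1 highest in both groups and an interval from -0.50 to 1.16. The 1 enzyme at an unadjusted p under 0.05 was ADAMTS12, a protease of the COMP-degrading kind. Of all 16661 genes 144 were higher and 111 lower at that threshold. ADAMTS12 had 6.47, 7.17, 6.53 and 6.46 with ACS and 7.16, 7.55, 7.88 and 6.64 with AES24h, a difference of -0.65 (interval -1.20 to -0.10) at a limma adjusted p of 1. Its groups overlap through ACS replicate 2.

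Protease inhibitors, 13 measured of 17 listed, had a median difference of 0.02 and no gene past the test. TIMP1, which blocks collagenases, had 11.0, 11.62, 11.16 and 12 with ACS and 11.72, 11.99, 11.43 and 11.86 with AES24h. The highest of the 8 TIMP1 arrays is an ACS array, and the interval of the difference ran from -0.89 to 0.28. TFPI2, a Kunitz-type inhibitor of serine proteases, had the lowest difference of this list, -0.76.

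Cytokines and chemokines gave no gene past the test among 19 measured members of 24 listed. Their intervals were wide, with 9 of 19 within 1 log2 unit of 0. IL6 read 10.5, 6.36, 8.98 and 8.70 with ACS and 9.92, 6.84, 7.29 and 9.78 with AES24h. The spread of IL6 over replicates, from 6.36 to 10.5 with ACS and from 6.84 to 9.92 with AES24h, is far wider than its difference of 0.18 (interval -1.16 to 1.51). IL6 averaged 8.39 with AES, 6.005 with IL-1β alone and 2.81 in control pellets.

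The neutrophil chemokine CXCL8 had 10.29, 5.97, 6.98 and 7.47 with ACS and 9.68, 6.92, 7.26 and 8.69 with AES24h. As in IL6, replicate 1 is the highest and replicate 2 the lowest array of both groups, and the CXCL8 interval ran from -1.90 to 0.98. CCL20, which attracts cells bearing CCR6, had 9.75, 8.21, 8.41 and 9.11 with ACS and 9.04, 8.22, 8.15 and 9.71 with AES24h (interval -0.61 to 0.79). IL11 averaged 9.47 ± 1.52 with ACS and 9.95 ± 1.03 with AES24h (SD, n = 4 each).

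The IL-1 receptor system, which ACS is best known for, showed no gene past the test in 17 measured members of 18 listed. The median difference was -0.01, and 15 of 17 intervals (88.2%) lay within 1 log2 unit of 0, beside 97.6% of all genes. IL1RN, the gene of the receptor antagonist, read 2.37, 2.77, 2.53 and 2.34 with ACS and 2.4, 2.26, 2.68 and 2.57 with AES24h. All 8 values lie below every array's median, so its RNA in the pellets was at the low end of the scale in both groups; protein brought in with the serum is not measured by the arrays. IL1R1, the signalling receptor, had 7.25, 8.06, 8.77 and 8.45 with ACS and 7.22, 8.19, 8.04 and 7.91 with AES24h (interval -0.45 to 1.04).

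IL1R2, the decoy receptor that binds IL-1 without signalling, had 9.75, 11.25, 11.02 and 11.16 with ACS and 10.13, 11.68, 11.36 and 10.45 with AES24h. Replicate 1 is its lowest array in both groups. IL1R2 averaged 10.8 with ACS, 10.9 with AES24h, 10.4 with AES, 8.88 with IL-1β alone and 6.26 in control pellets. IL1RAP, the co-receptor, averaged 4.24 ± 0.44 with ACS and 4.49 ± 0.48 with AES24h (SD, n = 4 each).

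Among 29 measured NF-kB subunits, targets and feedback genes, 15 had a positive difference, and none passed the test. BIRC3, an inhibitor of apoptosis, had 10.4, 7.37, 9.09 and 8.89 with ACS and 8.67, 7.0, 8.48 and 8.40 with AES24h. The groups overlap, replicate 2 is the lowest array of both, and the interval of the difference, -0.16 to 1.76, includes 0. TNFAIP3, the feedback inhibitor A20, averaged 6.57 ± 0.33 with ACS and 6.14 ± 0.42 with AES24h (SD, n = 4 each).

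Of 24 measured prostaglandin and nitric oxide genes none passed the test, and the median difference was -0.03. PTGS2, the inducible cyclooxygenase, read 8.86, 5.53, 5.67 and 7.05 with ACS and 9.32, 6.48, 6.05 and 8.28 with AES24h. Its replicates span more than 3 log2 units in each group, and the interval ran from -2.21 to 0.70, so that a difference of 4-fold lower with ACS lies inside it. NOS2, the inducible nitric oxide synthase, had 10.47, 8.32, 8.06 and 9.03 with ACS and 9.77, 8.91, 8.27 and 9.20 with AES24h (interval -1.19 to 1.06). HAS2, which makes hyaluronan, averaged 7.80 ± 0.65 with ACS and 7.67 ± 0.45 with AES24h (SD, n = 4 each).

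**Figure D1:**
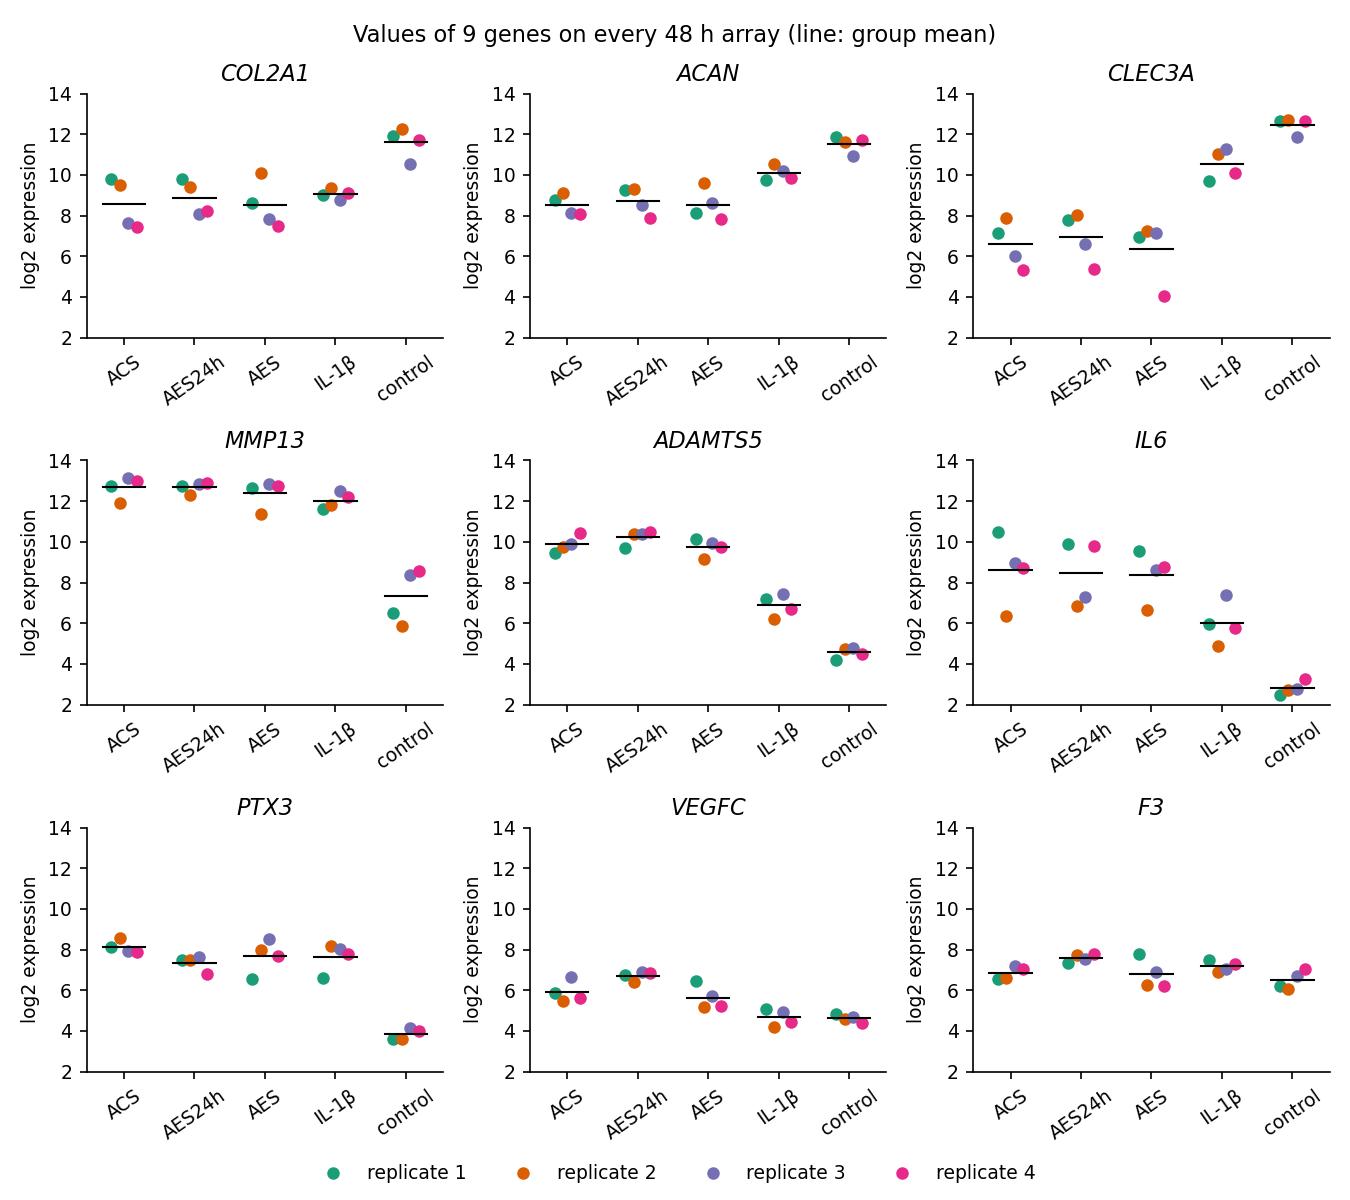
Log2 expression of 9 genes on each 48 h array (points, coloured by replicate number) in pellets with ACS, AES24h, AES, IL-1β alone and control; the black line is the mean of 4 arrays. ACS and AES24h points overlap for COL2A1, IL6 and MMP13, while the values of PTX3 and F3 do not overlap between ACS and AES24h.

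Genes that either serum shifted against IL-1β alone were set side by side. ACS against IL-1β called 50 probe sets higher (0.164%) and 30 lower (0.0982%), and AES24h against IL-1β called 50 higher (0.164%) and 19 lower (0.0622%). Together these stand for 99 named genes, 74 called with ACS and 66 with AES24h. Both comparisons use the same 4 IL-1β arrays, so their likeness is partly built in. A gene that passed with 1 serum alone entered through the serum where it moved further, so some direct difference is built in as well, and the following counts describe the 99 and support nothing. The direct difference passed the test for 0 of the 99. It had an unadjusted p under 0.05 for 6 of the 99, beside 144 higher and 111 lower of all 16661 genes, and its interval lay within 1 log2 unit of 0 for 83 of the 99, beside 97.6% of all genes.

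CLEC3A, a lectin of cartilage matrix, was 3.94 log2 units below IL-1β alone with ACS and 3.58 below it with AES24h. Directly compared, CLEC3A read 7.16, 7.86, 5.99 and 5.33 with ACS and 7.76, 8.05, 6.59 and 5.38 with AES24h, an interval from -1.67 to 0.95. ADAMTS5 was 2.99 above IL-1β alone with ACS and 3.36 above it with AES24h. FGF7, a growth factor for epithelial cells, was 2.96 above it with ACS and 3.26 with AES24h, and IL11 was 2.97 above it with ACS and 3.44 with AES24h. COLGALT2, which glycosylates collagen, was 2.17 below it with ACS and 2.10 below with AES24h, and the interval of the direct difference ran from -0.71 to 0.57.

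The gene of these 99 with the largest direct difference was VEGFC, a growth factor of lymphatic vessels. VEGFC read 5.85, 5.48, 6.67 and 5.61 with ACS and 6.76, 6.41, 6.89 and 6.83 with AES24h. Only ACS replicate 3 reaches into the AES24h range. The difference was -0.82 (interval -1.49 to -0.15) at a limma adjusted p of 1. Against IL-1β alone VEGFC was 2.05 higher with AES24h at an adjusted p of 0.00183 and 1.23 higher with ACS at 0.121, and a call in one comparison and not the other is no test of the difference between them.

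The other genes of the 99 at an unadjusted p under 0.05 were KCNJ15, a potassium channel, at -0.55, LOC100052445 at -0.71, HEG1, an endothelial membrane protein, at 0.42, PKP1, a desmosome component, at 0.37, and CCDC146 at 0.34. Of these HEG1 was called against IL-1β alone with ACS, at 1.07 (adjusted p 0.00235), and stood at 0.65 with AES24h (adjusted p 0.155). KCNJ15 was called with AES24h at 1.40 and stood at 0.85 with ACS. KCNJ15 had 6.56, 5.96, 6.18 and 6.59 with ACS and 6.90, 6.90, 6.78 and 6.91 with AES24h, groups that do not overlap.

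Contrasts that use no ACS or AES24h array give sets of probe sets chosen without them. IL-1β against control at 48 h called 148 probe sets higher (0.484%) and 238 lower (0.779%). Of the 148 raised by IL-1β, 85 were higher and 63 lower with ACS than with AES24h, with a median difference of 0.03. Of the 238 lowered by it, 103 were higher and 135 lower, with a median of -0.02. Over all probe sets 51.1% of differences were positive. AES against IL-1β called 47 higher (0.154%) and 88 lower (0.288%). The 47 were split 23 higher to 24 lower between ACS and AES24h, and of the 88 there were 28 higher and 60 lower with a median of -0.08. In none of these 4 sets did a probe set pass the test between ACS and AES24h.

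Genes whose arrays do not overlap between the sera are described next, as the 12 with the highest and the 12 with the lowest moderated statistic among those with a group mean above 4.45. There were 92 such genes among the 10342 above that mark, 29 higher and 63 lower with ACS. Of all 16661 genes at any level, 103 were wholly higher and 114 wholly lower. A gene could pass the mark of 4.45 through its higher group alone, as NKAPL did with ACS and LYG1 with AES24h. Non-overlap was how they were chosen, and it is no support for them. The limma adjusted p was 1 for each of the 24.

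PTX3, the long pentraxin, which marks microbes and regulates complement, read 8.13, 8.58, 7.95 and 7.90 with ACS and 7.49, 7.49, 7.63 and 6.82 with AES24h. Its difference of 0.78 had an interval from 0.04 to 1.52. PTX3 averaged 7.69 with AES, 7.65 with IL-1β alone and 3.84 in control pellets, so both serum groups lie near the IL-1β level. NKAPL had 4.72, 4.80, 5.33 and 4.97 with ACS and 3.68, 4.45, 4.48 and 4.32 with AES24h, a difference of 0.73 (interval 0.28 to 1.17). TAF9B, a TFIID-related transcription factor subunit, was higher in mean by 0.49, GUCA2A, or guanylin, by 0.36, and PPP5C, a protein phosphatase, by 0.32. LTV1, a factor of small ribosomal subunit assembly, was higher in mean by 0.30, BTBD2 by 0.26 and ARPC1A, a subunit of the actin-branching Arp2/3 complex, by 0.20.

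F3, tissue factor, which starts blood coagulation, read 6.57, 6.59, 7.21 and 7.07 with ACS and 7.33, 7.73, 7.53 and 7.76 with AES24h. Its difference was -0.73 with an interval from -1.23 to -0.22, and F3 averaged 6.79 with AES, 7.19 with IL-1β alone and 6.51 in control pellets. SLC7A5, a transporter of large neutral amino acids, had 8.15, 8.18, 7.73 and 8.14 with ACS and 8.33, 8.70, 8.63 and 8.76 with AES24h (difference -0.56, interval -1.01 to -0.10). The lowest SLC7A5 array is ACS replicate 3. RAB29, a small GTPase of membrane traffic, had 4.74, 4.74, 4.87 and 4.92 with ACS and 5.33, 5.29, 5.25 and 5.08 with AES24h, the smallest unadjusted p of the 24 at a difference of -0.42. UTS2R, the urotensin II receptor, was lower in mean by 0.42, LYG1, a goose-type lysozyme, by 0.43, FXR2, an RNA-binding relative of FMRP, by 0.44, and OPA3, a mitochondrial protein, by 0.44.

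The remaining 9 of the 24 had differences between -0.76 for LOC100054259 and 0.40 for ZNF615. The same 24 genes at 2 h, on arrays that did not choose them, had the sign of the 48 h difference in 9 cases, where 49.3% of all probe sets kept their sign. At 2 h 1 of the 24, BTBD2, had an unadjusted p under 0.05, with a difference of 0.31.

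**Figure D2:**
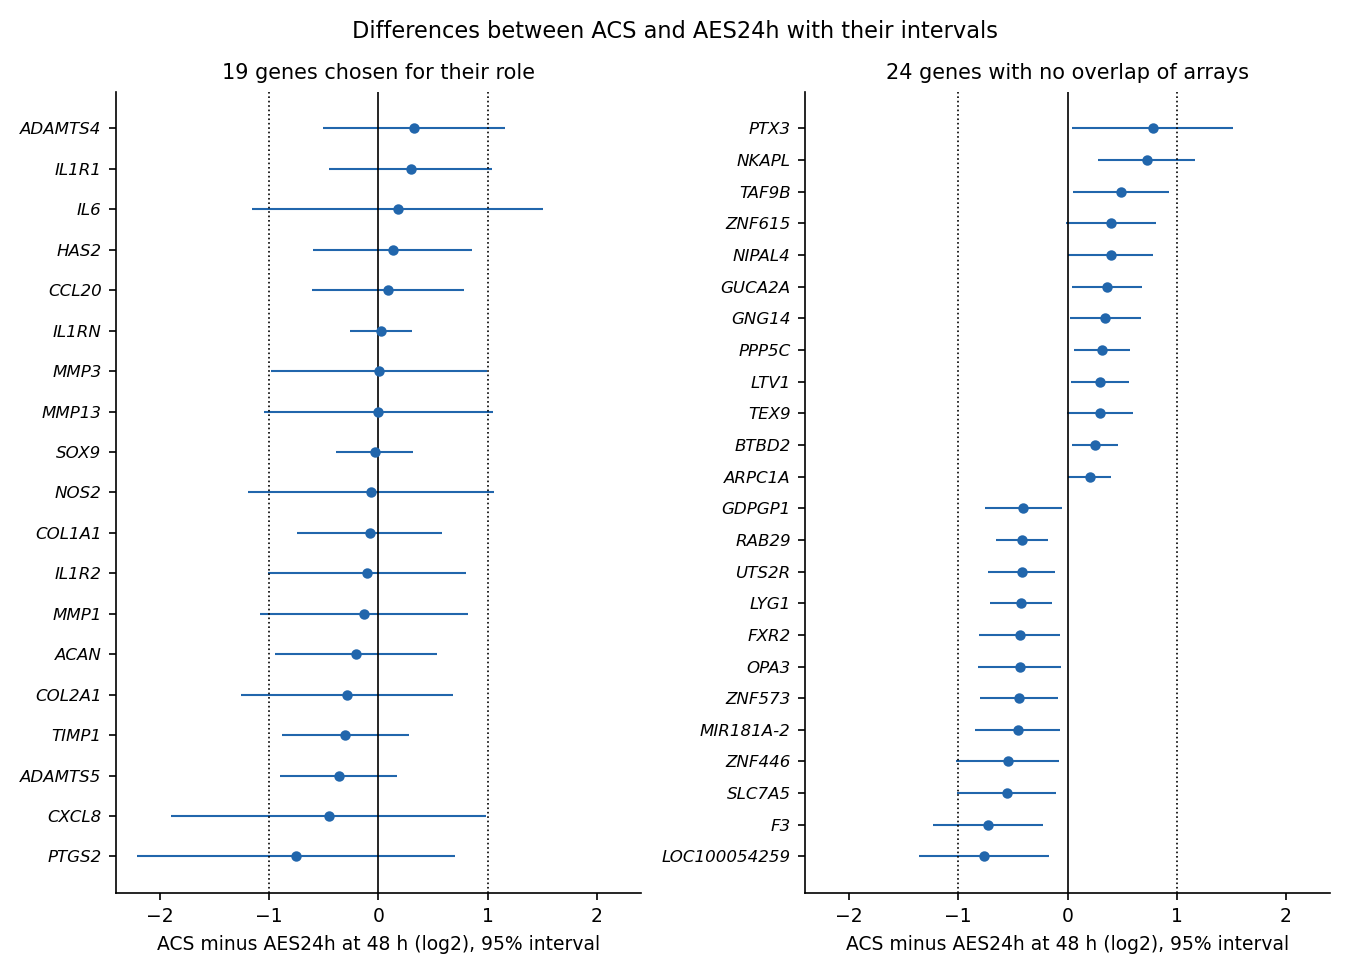
Difference between ACS and AES24h at 48 h on the log2 scale (points) with 95% intervals (bars), for 19 genes chosen for their role (left) and for 24 genes whose arrays do not overlap (right, chosen for that); dotted lines mark 1 log2 unit. Every interval on the left includes 0; on the right the points run from -0.76 to 0.78.

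The 32 gene lists were described by their members' counts and medians, beside the same over all genes, where 8430 of 16661 differences were positive and the median was 0.00. In 0 of the 32 lists did a member pass the test. The lowest list medians were those of mitosis and cytokinesis at -0.34, hypoxia and glycolysis at -0.22, DNA replication and S phase at -0.17, oxidative stress and metallothioneins at -0.16, and the unfolded protein and amino acid stress response at -0.14. The highest was that of acute phase and complement genes at 0.14. Members of a list share regulation and the same 8 arrays, so many members on one side are not many observations.

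Of 37 measured mitosis genes 4 had a positive difference, but the arrays of each group split widely. The median level of the list was 3.59, 5.70, 6.02 and 3.61 on the ACS arrays and 4.13, 5.90, 5.33 and 4.98 on the AES24h arrays. ACS replicates 1 and 4 are low and replicates 2 and 3 high, with a gap between them wider than that between the groups. Without ACS replicate 4 the list median was 0.04, without ACS replicate 3 it was -0.76, and 9 of 37 intervals lay within 1 log2 unit of 0. BIRC5, or survivin, had 2.4, 4.11, 4.24 and 2.53 with ACS and 3.49, 4.45, 3.68 and 4.37 with AES24h. AURKB, the Aurora B kinase of chromosome segregation, had 3.60, 4.66, 5.01 and 3.39 with ACS and 3.16, 4.84, 5.21 and 5.18 with AES24h. Fewer dividing cells and less RNA per cell cannot be told apart in such bulk samples. For the 34 DNA replication genes the list median ran from -0.27 to 0.08 over the other settings.

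Hypoxia and glycolysis genes had a positive difference in 4 of 35 members, and their list median stayed between -0.30 and -0.12 over 24 other settings. The median level of the list was 8.85, 8.43, 8.17 and 8.26 on the ACS arrays and 9.07, 8.67, 8.49 and 8.48 on the AES24h arrays. The groups overlap, and replicate 1 is the highest array of both. At each replicate number the ACS level was the lower, but the labels do not say what a number shares, and this was not tested. ALDOC, a glycolytic aldolase, read 6.88, 6.81, 6.36 and 6.59 with ACS and 7.61, 7.10, 7.18 and 6.93 with AES24h, which do not overlap (difference -0.55, interval -1.06 to -0.03, limma adjusted p 1). VEGFA, a hypoxia target and angiogenic factor, had 8.92, 8.69, 8.44 and 7.96 with ACS and 9.62, 8.99, 8.98 and 8.51 with AES24h, an overlap at an interval from -1.36 to 0.31. GAPDH had 11.3, 11.19, 10.77 and 11.02 with ACS and 11.39, 11.36, 11.09 and 11.19 with AES24h. EGLN3, an oxygen-sensing prolyl hydroxylase, had the lowest difference of the list at -0.82, while HIF1A, the oxygen-regulated transcription factor itself, stood at 0.03.

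In the unfolded protein and amino acid stress list 5 of 31 members had a positive difference. MANF, a factor secreted under endoplasmic reticulum stress, had 6.69, 6.65, 6.89 and 6.69 with ACS and 6.85, 6.97, 6.89 and 7.43 with AES24h (difference -0.31, interval -0.61 to -0.01). PSAT1, an enzyme of serine synthesis, had a mean of 6.24 with ACS and 7.001 with AES24h, and its groups do not overlap. CALR, the chaperone calreticulin, averaged 9.81 ± 0.08 with ACS and 10.05 ± 0.20 with AES24h (SD, n = 4 each). Among 16 oxidative stress genes HMOX1, haem oxygenase 1, had 9.71, 9.79, 8.61 and 11.16 with ACS and 10.4, 10.85, 9.58 and 10.95 with AES24h, with the highest and the lowest array both in the ACS group.

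Acute phase and complement genes were positive in 13 of 21 members. Beside PTX3, the complement proteases C1S and C1R had the highest differences, 0.82 and 0.78, at unadjusted p-values of 0.3 and 0.32 in limma. SERPING1, the C1 inhibitor, read 5.42, 6.36, 6.55 and 7.38 with ACS and 5.46, 6.53, 6.17 and 6.12 with AES24h, where ACS replicate 4 is the high array. Among 16 glucocorticoid response genes, with a median of 0.09, CRISPLD2 had the highest difference at 0.73 with an interval from -0.45 to 1.91. The 26 interferon response genes had a median of 0.01, and all 26 intervals lay within 1 log2 unit, beside 97.6% of all genes. IFI44 among them read 2.34 to 2.49 with ACS and 2.07 to 2.17 with AES24h, below every array median in both groups.

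Among 28 growth factor and IGF genes the 2 at an unadjusted p under 0.05 were VEGFC and EREG, an EGF receptor ligand. Of all 16661 genes 144 were higher and 111 lower at that threshold. EREG had 3.73, 3.49, 3.83 and 3.54 with ACS and 3.87, 4.34, 4.55 and 3.93 with AES24h, a difference of -0.53 (interval -1.03 to -0.02). Its means, 3.65 with ACS and 4.18 with AES24h, lie below the median of all values. TGFB1 had 6.74, 7.42, 7.32 and 6.62 with ACS and 7.05, 7.79, 7.48 and 7.56 with AES24h, an interval from -0.89 to 0.01. Among 31 Wnt genes 10 were positive, and WNT5A, a non-canonical ligand, averaged 3.63 ± 0.24 with ACS and 4.08 ± 0.17 with AES24h (SD, n = 4 each). WNT5A lies below the median of all values in both groups.

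**Figure D3:**
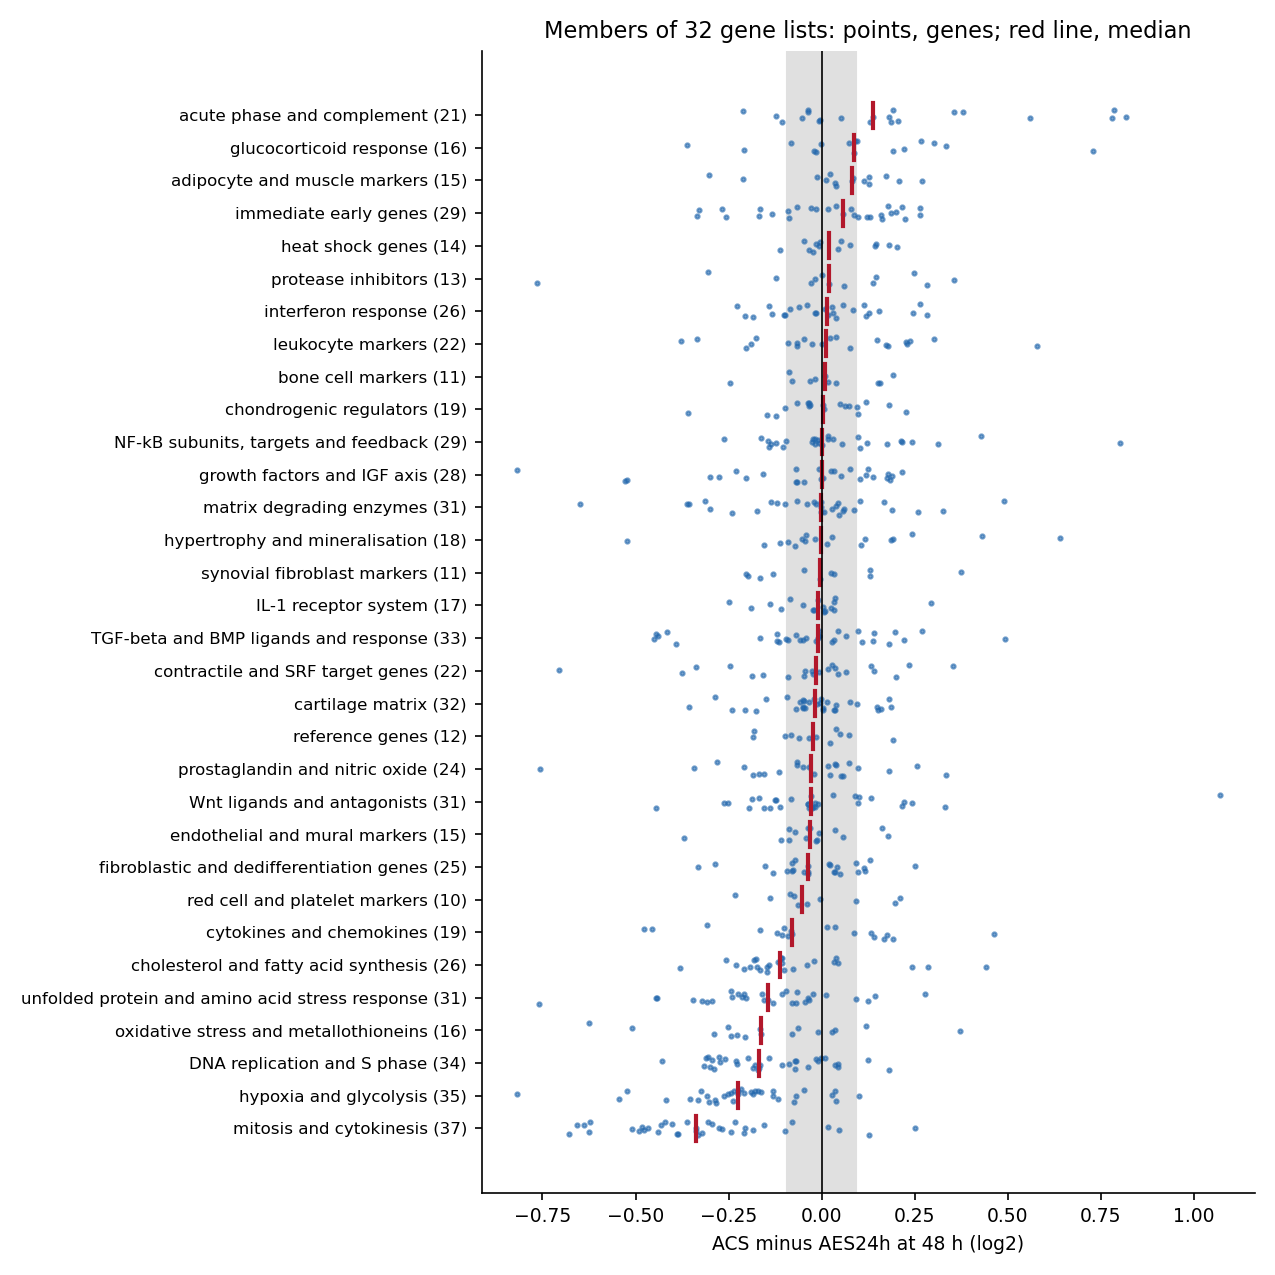
Difference between ACS and AES24h at 48 h (log2) for the measured members of 32 gene lists, with the number of members in parentheses; points are genes, the red line is the list median, and the grey band runs between the quartiles of all probe sets with 1 symbol, -0.09 and 0.09. List medians run from -0.34 for mitosis and cytokinesis to 0.14 for acute phase and complement.

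Markers of other cell types gave mean levels that overlapped between the sera in every list. Of 22 leukocyte markers 4 lay above the median of all values, and their mean level was 3.42 to 3.76 on ACS arrays and 3.40 to 3.78 on AES24h arrays. CD53, a leukocyte tetraspanin and the 1 marker at an unadjusted p under 0.05, read 2.22 to 2.77 with ACS and 2.53 to 3.35 with AES24h. Of all 16661 genes 144 were higher and 111 lower at that threshold. For red cell and platelet markers 2 of 10 lay above that median, at a mean level of 3.63 to 3.72 with ACS and 3.66 to 3.74 with AES24h. Bone cell markers were the highest of these lists, with 5 of 11 members above the median of all values and a mean level of 4.67 to 4.92 with ACS and 4.69 to 4.94 with AES24h. Synovial fibroblast markers had 4 of 11 above it and lay at 4.18 to 4.54 with ACS and 4.32 to 4.55 with AES24h. Endothelial and mural markers lay at 4.07 to 4.15 with ACS and 4.09 to 4.19 with AES24h, and adipocyte and muscle markers at 3.77 to 3.98 with ACS and 3.64 to 4.02 with AES24h. Reference genes, 12 in number, had a median difference of -0.02.

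At 2 h, on a separate set of 8 arrays, ACS and AES24h differed in 0 of 30559 probe sets (0%), with a smallest adjusted p of 0.728 in limma and 1197 at an unadjusted p under 0.05 (3.92%). At 2 h the differences of genes named above were 0.23 for CXCL13, -0.06 for PTX3, -0.46 for F3, 0.16 for SLC7A5 and -0.40 for VEGFC. Among others the value was near that at 48 h for some, with 0.30 for ADAMTS4, -0.38 for TIMP1 and 0.02 for IL1RN. It had the opposite sign to 48 h for others, with -0.51 for TNFAIP3, -0.39 for IL6 and 0.53 for COL1A1. Both sets are examples only. EREG stood at -0.69 at 2 h, with an unadjusted p of 0.00946 and an adjusted p of 1.00 in limma. Over all probe sets the 48 h and 2 h differences, which share no array, correlated at -0.03.

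The change of the difference between the times was tested directly. With limma 1 probe set (0.00327%) passed, and 991 had an unadjusted p under 0.05 (3.24%). That probe set, 14964419, has no symbol in the annotation. It averaged 2.07 with ACS and 1.58 with AES24h at 48 h, and 1.65 with ACS and 2.10 with AES24h at 2 h. Its 48 h minus 2 h value was 0.93 (SE 0.16, adjusted p 0.0393), and all 4 means lie far below the array medians. The call did not hold with the replicate block (adjusted p 0.0567), with renewed quantile normalisation (0.068), without the intensity trend (0.118), with array weights (0.0691) or with only the groups compared (0.157). It held with the replicate number as a random block (limma adjusted p 0.0256) and with arrays centred on their medians (0.04985). Of 20 fits that left out an array or a replicate number 15 lost it. It held without ACS replicate 2 or 3 or AES24h replicate 3 of the 48 h arrays, and without ACS replicate 3 or AES24h replicate 4 of the 2 h arrays.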

How the data were processed

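Total RNA of 40 pellet samples was measured on Affymetrix equine whole-transcript arrays. The deposited values are log2 expression per probe set, of the kind RMA gives. The submitters' processing notes list Affymetrix Expression Console, RMA and limma, with neither the role nor the version of each. RMA corrects background, makes arrays alike by quantile normalisation and summarises probes, so a shift of most transcripts one way would be reduced.

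Of 30559 probe sets 16789 have 1 symbol in the platform annotation, 343 several and 13427 none; 746 share identical values with another. Only those with 1 symbol are named, and each of the 111 genes with several such probe sets is represented by the one whose mean over the 40 arrays is highest. Annotation symbols can be old. The number of arrays limits the precision. No genome or sequence was used.

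Groups and replicate numbers come from the sample titles. A linear model of 10 group means over 40 arrays was fitted in limma 3.58.1 (R 4.3.3) with an intensity trend (30 residual and 4.62 prior degrees of freedom), two-sided, with Benjamini-Hochberg adjustment over all probe sets at 0.05 and 95% intervals from the moderated fit. The fit was tested on simulated data with independent arrays and the same spread in all groups. The real arrays need not meet either condition, so that test does not vouch for the intervals given here.

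Named are genes past the test, the 12 highest and 12 lowest moderated statistics without overlap of arrays, the 2 largest of each list, 19 measured of 20 genes chosen for their role (PRG4 was not measured under that symbol), and 3 by size, chosen after their values were seen. Other list members are named as list extremes or among the genes called against IL-1β. The comparison, lists and rules were chosen with earlier results of these data known. Alternatives were the replicate number as a block, the upper 60% of probe sets, renormalisation, median centring, no trend, array weights, fewer groups, a 1.2-fold minimum, and leaving out each array or replicate in turn.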

Additional observations from a re-analysis of the deposited data

Results flagged for a closer look

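In 216 groups of 4 values, those of the 108 named genes with ACS and with AES24h at 48 h, 18 had 1 array whose gap to the nearest other was a larger share of the group's range than Dixon's 95% critical value for 4 values, which chance exceeds in about 1 group of 20. With ACS, replicate 3 was apart for ZNF573 at 3.74 (others 4.37 to 4.46), SLC7A5 at 7.73 (8.14 to 8.18), OPA3 at 4.01 (4.69 to 4.79), FZD4 at 4.84 (6.11 to 6.19) and CSPG4 at 5.51 (6.30 to 6.45). ACS replicate 1 was apart for IL1R2 at 9.75 (11.02 to 11.25), COL1A1 at 9.56 (10.98 to 11.08), MMP19 at 5.55 (6.16 to 6.26) and CALR at 9.93 (9.76 to 9.78), and ACS replicate 2 for ADAMTS12 at 7.17 (6.46 to 6.53).

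With AES24h, replicate 3 was apart for BTBD2 at 6.74 (6.54 to 6.55), LTV1 at 5.65 (5.81 to 5.82) and ANKRD1 at 3.14 (2.66 to 2.70). AES24h replicate 1 was apart for ZNF573 at 4.94 (4.57 to 4.63) and ADAMTS5 at 9.71 (10.38 to 10.49), replicate 2 for BIRC3 at 7 (8.40 to 8.67), and replicate 4 for PTGES2 at 5.58 (5.16 to 5.23) and IRF1 at 3.82 (4.01 to 4.02).

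Probe set 14964419, unnamed, was the 1 probe set whose difference between ACS and AES24h itself passed the test between 48 h and 2 h, by 0.93 on the log2 scale at a limma adjusted p of 0.0393. The call was lost with the replicate block (adjusted p 0.0567), without the intensity trend (0.118), with array weights (0.0691) and in 15 of 20 fits with an array or replicate number left out. It held with the replicate number as a random block (limma adjusted p 0.0256) and with arrays centred on their medians (0.04985).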

How the results depend on the processing

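The count of probe sets differing between ACS and AES24h at 48 h was 0 in all 24 alternatives, with 607 to 1244 at an unadjusted p under 0.05 when arrays or replicates were left out, and 100 with a minimum of 1.2-fold. The smallest adjusted p in any alternative was 0.0896, without ACS replicate 1. The share of probe sets whose interval lay within 1 log2 unit was 85.4% to 88.8% with arrays left out, which widens intervals. The 2 h count was 0 in every alternative. The 48 h minus 2 h count of 1 became 0 with the replicate block, with the upper 60% of probe sets (which leave out that dim probe set), with renewed quantile normalisation, without the intensity trend, with array weights, with only the groups compared and with a minimum of 1.2-fold; it was 0 to 1 with arrays left out, and otherwise the cause was not tested. Of 2577 gene values under alternatives 55 changed sign, in 16 of 108 genes; of 768 list medians 97 changed sign and 3 moved by more than the replicate spread. Leaving out replicate 1 of the compared groups was chosen after seeing the data.

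The replicate numbers were not taken as pairs: deviations of same-numbered ACS and AES24h arrays correlated at 0.0754 to 0.521, above 0.1 in 3 of 4 pairs. As a hint from the data, 8 of 8 arrays correlated best with their own number. If same-numbered arrays share a level, groups can overlap although ACS and AES24h differ at each number. Overlap as given above takes no account of that. With the replicate block 0 probe sets passed at 48 h, with 913 at an unadjusted p under 0.05, 1421 when only the 8 arrays were fitted, and the shares within 1 log2 unit were 92.1% and 94.1%; the block gave 0 at 2 h and 0 for 48 h minus 2 h, and as a random block 1 for 48 h minus 2 h (adjusted p 0.0256).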
